A study of Mus musculus with 30 samples.

Results

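Mouse colon secretes a set of antimicrobial proteins into the mucus and carries IgA across its epithelium. 8 genes of that defence were followed here by name through mRNA sequencing of 30 mouse samples: Reg3b, Reg3g, Pglyrp1, Slpi, Mptx1, Ang4, Retnlb and Pigr. They are 8 of the 13456 genes that the 7 deposited tables list between them. The colon table lists all 8. The colonoid tables list 5 of them (Slpi, Pglyrp1, Ang4, Mptx1 and Pigr) and the colonocyte tables list 1, Slpi. For the other members in those tables no level can be given.

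The samples form 10 groups of 3 libraries in 3 systems. The first system was colon epithelium of C57BL/6J mice, either Smad4ΔLrig1 mice (Smad4 knockout) or Smad4+ controls; the deletion is known here only by that name, and no source used here gives its driver, the age of the mice or the time since deletion. The second was colonoids, organoids grown from mouse colon epithelium, of the lines L42, L43 and L46, each given TNF (100 ng/mL) with TGFB1 (3 ng/mL) and BMP2 (10 ng/mL), TGFB1 with BMP2 at those doses, TNF alone, or vehicle. No source used here gives their strain or the length of treatment. The third was cultured colonocytes labelled IMCfl/fl Smad4+, all of 1 strain label, given TNF with TGFB1 and BMP2, TGFB1 with BMP2, or TNF, or labelled as control. No source used here gives the doses, the times or what the controls received. Smad4 is the shared partner of the SMAD proteins that carry TGFB and BMP signals to the nucleus.

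The 8 proteins act at different steps. Reg3b and Reg3g are secreted C-type lectins that bind bacterial surfaces and are induced by IL-22 through STAT3 and by microbial signals. Pglyrp1 binds peptidoglycan. Slpi inhibits neutrophil proteases and is itself antimicrobial. Mptx1 is a mucosal pentraxin of mice. Ang4 is a microbicidal ribonuclease-family protein made by Paneth cells in mouse small intestine and by secretory cells of the colon crypt. Retnlb (RELM-beta) is a goblet cell product. Pigr is the receptor that carries dimeric IgA through the epithelial cell into the lumen, and NF-kB and interferon signals are known to induce it.

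Levels are read counts scaled (CPM) to the authors' effective library size. Each comparison was tested with limma on log2(CPM + 1) over all genes of its table; p-values were adjusted by Benjamini and Hochberg's method, and a gene is called under 0.05. A log2 change is the difference of group means on that scale, which understates changes of genes at low CPM, and ± gives its standard error (SE) or, beside a level, the SD over 3 libraries. Libraries held 23.2 to 28.6 M reads for colon, 42.2 to 61.7 M for colonoids and 21.6 to 42.9 M for colonocytes. Smad4 itself had 47.8, 59.2 and 46.1 CPM in the knockout colon libraries, against 132, 148 and 152 CPM in the control libraries. Markers of epithelium (9 of 9 listed) were present in colon and colonoids. In colon they summed to 11136 to 13846 CPM in knockout libraries and 14893 to 15751 CPM in control libraries, with 3 called lower and 1 higher, and the part of this shift in the changes below was not tested. In the colonocytes the epithelial markers Epcam, Krt20, Vil1, Cdx1 and Cdx2 are not listed and 4 of 9 are, at 41.2 to 49.9 CPM summed with TNF and 35.5 to 48.1 in the control. In the same libraries 6 of 7 stromal markers summed to 3967 to 4169 CPM with TNF and 4013 to 4330 in the control, which goes against the colonocyte label.

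In knockout colon the 8 genes split 3 ways. Reg3b, Reg3g and Slpi rose 2.78 to 3.52-fold, Mptx1 fell to 4.09% of its control level and Retnlb to 70.1%, and Pglyrp1, Ang4 and Pigr did not pass the test. Pigr averaged 101% of its control level. The members called are 5 of 8, where 39.7% of all 11607 genes tested were called (19.8% higher and 19.9% lower), and the median log2 change of the 8 was -0.08 against 0.00 over all genes. Summed over the members, knockout libraries gave 18371, 22111 and 15471 CPM, against 12838, 12524 and 12872 CPM in control libraries. In whole epithelium, more or fewer cells of a type and more or less RNA per cell cannot be told apart, and this holds for each change below.

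**Figure D1:**
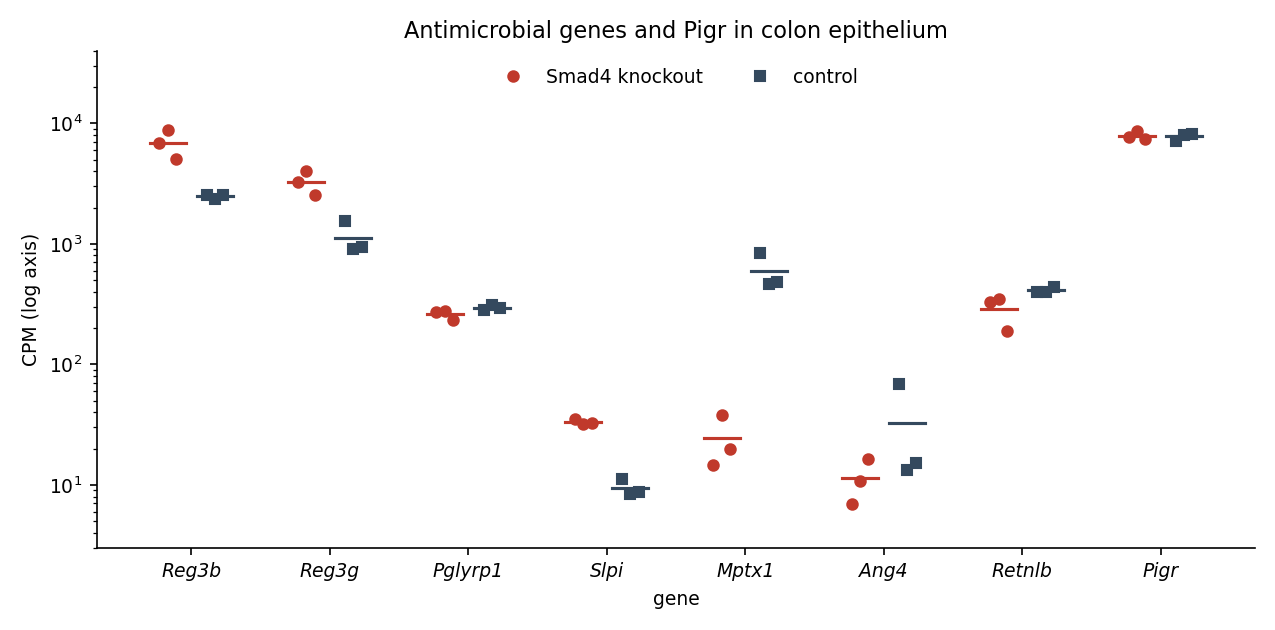
CPM of the 8 genes in each colon epithelium library on a log axis, with Smad4 knockout libraries left of control libraries and bars at the group means (n = 3 each). Reg3b, Reg3g and Slpi lie higher in all 3 knockout libraries than in any control library, Mptx1 lies far lower, and the Pigr and Ang4 groups overlap.

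Reg3b and Reg3g are neighbours on chromosome 6. In GRCm38, the build behind the authors' mm10, RefSeq places Reg3b at chr6:78370885-78373466 on the plus strand with 6 exons and Reg3g at chr6:78466269-78468874 on the minus strand, also with 6 exons. They are 92.8 kb apart, with the genes Reg3d, Reg3a, Reg2 and Reg1 between them. Their promoter windows (RefSeq, GRCm38.p6, 250 bases before to 50 after the transcript start, Reg3b at chr6:78370635-78370934 plus strand and Reg3g at chr6:78468825-78469124 minus strand) are shown because both genes moved together; capitals mark runs of 10 or more bases that a global alignment finds identical in both.
Reg3b: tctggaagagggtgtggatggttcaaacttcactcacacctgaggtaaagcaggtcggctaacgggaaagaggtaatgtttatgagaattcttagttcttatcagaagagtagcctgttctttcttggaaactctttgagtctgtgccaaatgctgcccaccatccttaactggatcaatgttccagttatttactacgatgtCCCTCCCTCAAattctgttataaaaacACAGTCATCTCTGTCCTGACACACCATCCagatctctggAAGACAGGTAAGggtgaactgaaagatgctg
Reg3g: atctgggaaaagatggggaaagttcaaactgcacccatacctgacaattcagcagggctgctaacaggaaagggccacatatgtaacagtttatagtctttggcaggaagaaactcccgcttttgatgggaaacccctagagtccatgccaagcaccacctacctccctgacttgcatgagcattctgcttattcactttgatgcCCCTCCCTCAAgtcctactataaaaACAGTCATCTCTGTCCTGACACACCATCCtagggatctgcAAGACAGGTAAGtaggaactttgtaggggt
In that alignment 210 bases, or 70.0% of the window, are identical. The longest shared run has 29 bases and spans the transcript start. Outside the capitals, the Reg3b window holds 1 match to the STAT motif TTCNNNGAA, first base at position -129 from the start, and the Reg3g window holds none; 8.30% of all 32851 promoter windows hold one on either strand. The NF-kB motif searched (GGG and CC with any 5 bases between, on either strand) matched the Reg3g window at -123 and not the Reg3b window, and 50.8% of all windows hold it. These matches describe letters and not binding.

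Reg3b had 6802, 8765 and 5046 CPM in knockout colon, against 2524, 2367 and 2536 CPM in control colon. All 3 knockout libraries lay above all control libraries, and the spread was wider in the knockout (SD 1860 CPM) than in the control (SD 94.2 CPM). Its log2 change was 1.44 ± 0.18 (SE, limma adjusted p = 0.000492), and 64 of the genes tested had a larger one. Reg3g had 3254, 4052 and 2528 CPM in knockout colon, against 1532, 900 and 945 CPM in control colon, with a log2 change of 1.56 ± 0.22 (SE, limma adjusted p = 0.000766). Its groups did not overlap either, and knockout library 2 was the highest and library 3 the lowest for both lectins. Per kb of exon, Reg3b stood above Reg3g in both groups, at 8775 ± 2376 and 4251 ± 989 CPM per kb in knockout and 3162 ± 120 and 1460 ± 458 CPM per kb in control (SD, n = 3). The ratio of Reg3b to Reg3g CPM was 2.1, 2.2 and 2.0 in knockout libraries, against 1.7, 2.6 and 2.7 in control libraries, so the ranges overlap. Reg3a, another lectin of the cluster, singled out after its values were seen, also rose, with 2.25 ± 0.650 CPM in knockout and 1.12 ± 0.408 CPM in control (SD, n = 3; limma adjusted p = 0.0358).

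Slpi (chr2:164354070-164356507, minus strand, 4 exons) had 35.4, 32.1 and 32.3 CPM in knockout colon, against 11.2, 8.39 and 8.75 CPM in control colon. The knockout libraries were tightly grouped, at 33.3 ± 1.87 CPM against 9.45 ± 1.54 CPM (SD, n = 3). The log2 change was 1.72 ± 0.14 (SE, limma adjusted p = 7.01e-05). Pglyrp1 (chr7:18884690-18890438, plus strand, 3 exons) had 272, 278 and 233 CPM in knockout colon, against 283, 308 and 295 CPM in control colon. The knockout libraries lay below the control libraries by a small step, with a log2 change of -0.18 ± 0.10 that did not pass the test (SE, limma adjusted p = 0.179). Counting Pglyrp1, 6 of the 8 members had groups that did not overlap, where 50.2% of all genes tested had such groups.

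Among neutrophil markers, which bear on Slpi and Pglyrp1 because neutrophils make both, 1 of 10 is listed in colon. That one is Ltf (lactoferrin), at 12.1, 15 and 8.32 CPM in knockout libraries, against 3.15, 2.44 and 2.19 CPM in control libraries. S100a8, S100a9, Ly6g, Mpo, Elane, Cxcr2, Csf3r, Ngp and Camp are not listed. Leukocyte markers (5 of 5 listed) summed to 36.7 to 45.7 CPM in knockout and 41.1 to 55.3 CPM in control, with 1 called lower. The part of other cells in the Slpi and Ltf changes was not tested.

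Mptx1 (chr1:174330518-174332877, plus strand, 2 exons) had 14.7, 38.2 and 19.8 CPM in knockout colon, against 838, 463 and 478 CPM in control colon. Every knockout library was more than 10 times below every control library. The log2 change was -4.61 ± 0.31 (SE, limma adjusted p = 3.21e-05), and 1 gene of the 11607 had a lower one. Of the 51-base words of its transcript 17.5% also occur in Mptx2, a near copy that no table lists, so a part of these reads cannot be assigned with certainty.

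Ang4 (chr14:51763892-51773590, minus strand, 2 exons) had 6.87, 10.7 and 16.5 CPM in knockout colon, against 69.0, 13.4 and 15.2 CPM in control colon. The groups overlapped, and control library 1 stood far above the rest. The log2 change was -1.12 ± 0.52 and did not pass (SE, limma adjusted p = 0.112). Leaving out control library 1 gave a log2 change of -0.39 (limma adjusted p = 0.314), while leaving out control library 2 gave -1.53 and a call (limma adjusted p = 0.0474). The authors' deposited table gives Ang4 a log2 fold change of -1.52 with a false discovery rate of 0.00776. Control library 1 also differed from the other control libraries in 2 genes of Paneth and related secretory cells, singled out after their values were seen. Itln1 had 17.7 CPM there, against 7.10 and 6.49 CPM in controls 2 and 3, and Mmp7 had 7.55 CPM there, against 34.6 and 35.3 CPM.

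Retnlb (chr16:48816856-48818892, plus strand, 4 exons) had 329, 349 and 190 CPM in knockout colon, against 401, 396 and 442 CPM in control colon. The groups did not overlap, and knockout library 3 was the lowest. Its log2 change of -0.56 ± 0.20 passed narrowly (SE, limma adjusted p = 0.0448). The call held with DESeq2 (adjusted p = 0.0177) and with the replicate number as a block (limma adjusted p = 0.0157). The authors' deposited table gives Retnlb a false discovery rate of 0.0278. The call was lost with scaling to total reads (limma adjusted p = 0.0583), with edgeR (adjusted p = 0.0613), without knockout library 3 (log2 change -0.28, limma adjusted p = 0.0508) and without any 1 control library (limma adjusted p = 0.0810 to 0.0957). Goblet markers (5 listed) summed to 6187 to 8981 CPM in knockout libraries and 10252 to 11077 CPM in control libraries, with 3 of 5 called lower and 1 higher. The part of goblet cell number in the Retnlb change was not tested.

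Pigr (chr1:130826684-130852249, plus strand, 11 exons) had 7657, 8587 and 7405 CPM in knockout colon, against 7179, 8068 and 8152 CPM in control colon. The groups overlapped fully and the log2 change was 0.01 ± 0.14 (SE, limma adjusted p = 0.944). Per kb of exon, Pigr (2048 CPM per kb in knockout, 2027 in control) stood below Reg3b in both groups.

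**Figure D2:**
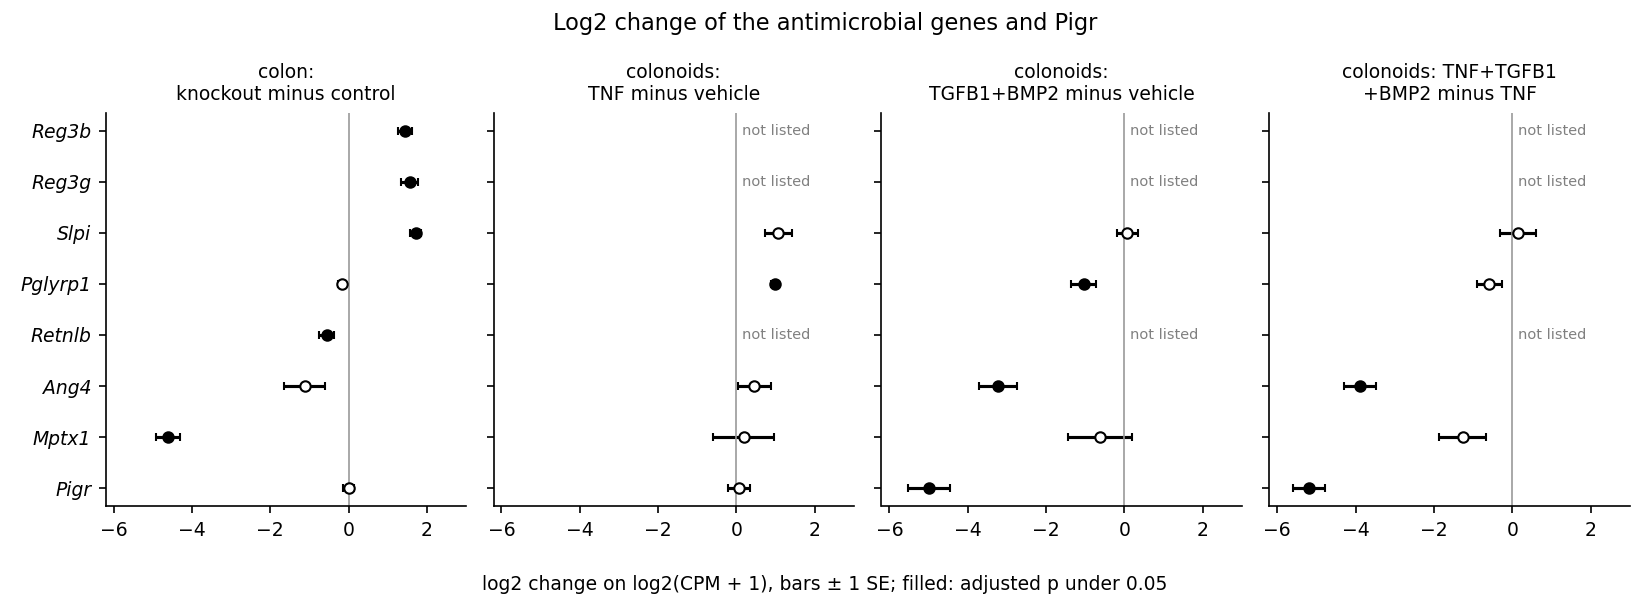
Log2 change of each member in 4 comparisons, as the first-named minus the second-named group, on the log2(CPM + 1) scale with SE; filled points have a limma adjusted p under 0.05, and genes without a value are marked as not listed. In knockout colon Mptx1 has the lowest value (-4.61) and Pigr is near 0, while with TGFB1 and BMP2 in colonoids Pigr has the lowest value (-4.99).

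In colonoids, TGFB1 with BMP2 lowered Pigr to 3.70% and Ang4 to 10.3% of the vehicle level, in all 3 lines. Pglyrp1 fell to 52.8%, with line L46 near its vehicle level. Mptx1 and Slpi did not pass the test. The members called are 3 of 5, all lower, where 56.7% of all 11633 genes tested were called (28.0% higher and 28.7% lower). The median log2 change of the 5 was -1.04 against -0.02 over all genes. Scaling to total reads moved the median of all genes to -0.28 and the split of calls to 1997 higher and 5026 lower, in place of 3262 and 3334. The same members were called lower under it, and their median was -1.31.

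The Pigr promoter window (RefSeq, GRCm38.p6, chr1:130826434-130826733, plus strand) and that of Ang4 (chr14:51773541-51773840, minus strand) are shown because both genes fell together in the colonoids. Capitals mark matches to that NF-kB motif, the E-box CACGTG and the STAT motif TTCNNNGAA in Pigr, and to the STAT motif and the AP-1 motif TGANTCA in Ang4.
Pigr: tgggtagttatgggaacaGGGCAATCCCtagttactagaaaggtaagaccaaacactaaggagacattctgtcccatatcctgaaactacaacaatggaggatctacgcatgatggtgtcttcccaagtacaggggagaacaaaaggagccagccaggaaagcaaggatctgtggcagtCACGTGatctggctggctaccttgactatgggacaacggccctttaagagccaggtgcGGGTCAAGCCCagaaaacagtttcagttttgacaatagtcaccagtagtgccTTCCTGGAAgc
Ang4: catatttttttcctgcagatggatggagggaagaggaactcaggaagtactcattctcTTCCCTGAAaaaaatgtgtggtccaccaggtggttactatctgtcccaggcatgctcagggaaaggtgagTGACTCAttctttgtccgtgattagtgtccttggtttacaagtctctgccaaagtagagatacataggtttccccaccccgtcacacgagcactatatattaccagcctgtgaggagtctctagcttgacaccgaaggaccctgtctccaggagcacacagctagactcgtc
In Pigr the NF-kB matches begin at -232, where both strands match, and at -13 and -12, where 2 matches overlap on opposite strands; the E-box begins at -71 and the STAT match at 39. In Ang4 the STAT match begins at -192 and the AP-1 match at -122. Of all promoter windows 7.15% hold CACGTG, which was added to the motifs after the Pigr sequence had been read, and 7.81% hold TGANTCA. The SMAD box CAGAC, found in 49.6% of all windows, matched in Reg3b at -111 and in Pglyrp1 at -102, and neither Pigr nor Ang4 holds it. The Mptx1 window matched none of the 7 motifs searched.

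Pigr had 24.1, 35.4 and 107 CPM with TGFB1 and BMP2 in lines L42, L43 and L46, against 1514, 1919 and 1082 CPM with vehicle. Every treated library lay more than 10 times below its own line's vehicle library, by 62.8, 54.2 and 10.1-fold. The log2 change was -4.99 ± 0.53 (SE, limma adjusted p = 0.00152), and none of the 11633 genes tested had a lower one on this scale. Ang4 had 7.29, 4.87 and 17.6 CPM with TGFB1 and BMP2, against 149, 82.6 and 58.9 CPM with vehicle. It was 20.4, 17.0 and 3.34-fold lower by line, with a log2 change of -3.23 ± 0.49 (SE, limma adjusted p = 0.00337). Pglyrp1 had 173, 203 and 428 CPM with TGFB1 and BMP2, against 507, 489 and 529 CPM with vehicle. Its log2 change was -1.04 ± 0.32 (SE, limma adjusted p = 0.0305). The call held with DESeq2 (adjusted p = 0.00956) and with the line as a block (limma adjusted p = 0.0223). It held with scaling to total reads (limma adjusted p = 0.0166) and was lost with edgeR (-0.92, adjusted p = 0.0559). Leaving out any 1 library other than L46 with TGFB1 and BMP2 also lost the Pglyrp1 call (limma adjusted p = 0.0755 to 0.0880), while leaving out that library gave -1.43 (limma adjusted p = 7.70e-05).

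Line L46 showed the smallest fall in Pigr, Ang4 and Pglyrp1. Id1, a target gene of BMP signalling used as a check of the treatment, had 164, 173 and 59.3 CPM with TGFB1 and BMP2 in L42, L43 and L46, against 19.1, 19.9 and 29.3 CPM with vehicle, so its rise was smallest in L46 as well. The part of this difference in the members' values was not tested.

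**Figure D3:**
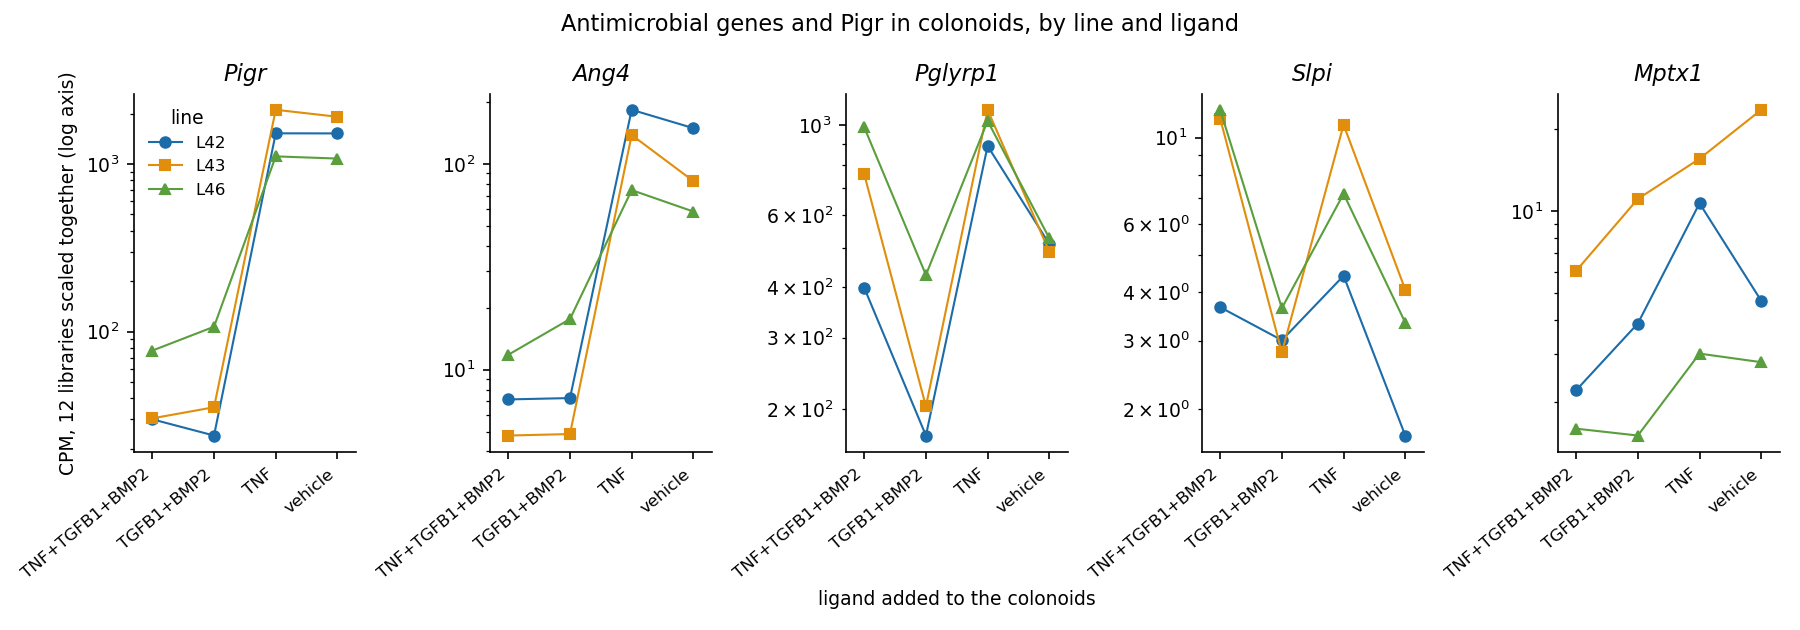
CPM of the 5 listed members in the 3 colonoid lines on a log axis, scaled over all 12 libraries together, in the order TNF with TGFB1 and BMP2, TGFB1 with BMP2, TNF, vehicle. Pigr and Ang4 are low in both groups given TGFB1 and BMP2 in each line, and Pglyrp1 is higher in each group given TNF than in its counterpart without TNF in every line.

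Mptx1 had 3.88, 11.1 and 1.5 CPM with TGFB1 and BMP2 in L42, L43 and L46, against 4.67, 23.7 and 2.80 CPM with vehicle. It differed more between lines than between treatments. The log2 change was -0.62 ± 0.82 (SE, limma adjusted p = 0.543), and with the colonoid line as a block it passed (limma adjusted p = 0.0425). Without the vehicle library of L43 it was 0.19. Slpi had 3.02, 2.80 and 3.65 CPM with TGFB1 and BMP2, against 1.70, 4.07 and 3.35 CPM with vehicle. These overlap, with a log2 change of 0.08 ± 0.26 (SE, limma adjusted p = 0.794).

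TGFB1 with BMP2 also lowered Pigr and Ang4 when TNF was present. Pigr had 29.8, 30.0 and 76.8 CPM with all 3 ligands in L42, L43 and L46, against 1531, 2115 and 1112 CPM with TNF alone. That is 2.87% of the TNF level, with a log2 change of -5.19 ± 0.41 (SE, limma adjusted p = 0.00134). Ang4 had 7.11, 4.72 and 11.8 CPM with all 3 ligands, against 183, 139 and 74.6 CPM with TNF, with a log2 change of -3.89 ± 0.40 (SE, limma adjusted p = 0.00158). Both genes were lower in every line, again least in L46. The members called are 2 of 5, both lower, where 54.1% of the 11595 genes tested were called (27.7% lower). Scaling to total reads moved the median of all genes to -0.27 here, the median of the 5 members to -1.47 in place of -1.26, and the split of calls to 1912 higher and 4890 lower in place of 3061 and 3217. Mptx1 had 2.18, 5.97 and 1.59 CPM with all 3 ligands, against 10.7, 15.7 and 3.00 CPM with TNF. It was lower in each line, and the log2 change of -1.26 ± 0.60 did not pass (SE, limma adjusted p = 0.113). It passed with the line as a block (limma adjusted p = 0.0175), with DESeq2 (adjusted p = 0.0394) and without the TNF library of L46 (log2 change -1.86, limma adjusted p = 0.0296), and over the 6 libraries left out in turn it lay between -1.86 and -0.83. Pglyrp1 had 396, 749 and 985 CPM with all 3 ligands, against 893, 1097 and 1027 CPM with TNF. Here L42 accounted for the widest gap and L46 for the smallest, and the log2 change of -0.59 ± 0.32 did not pass (SE, limma adjusted p = 0.154), while without the L46 library given all 3 ligands it was -0.88 (limma adjusted p = 0.0250). Slpi had 3.64, 11.1 and 11.7 CPM with all 3 ligands, against 4.43, 10.8 and 7.18 CPM with TNF, a log2 change of 0.15 (limma adjusted p = 0.802).

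TNF alone raised Pglyrp1 in the colonoids by 1.98-fold. Pglyrp1 had 980, 1202 and 1128 CPM with TNF in L42, L43 and L46, against 561, 533 and 580 CPM with vehicle, 1.75, 2.26 and 1.95-fold by line. The log2 change was 0.98 ± 0.09 (SE, limma adjusted p = 0.0148), and only leaving out the TNF library of L42 kept the call; without any other 1 library the limma adjusted p was 0.0572 to 0.118, with log2 changes of 0.91 to 1.01. It is the 1 member of 5 called, where 0.137% of the 11688 genes tested were called (0.120% higher). With the line as a block 718 of the 11688 genes passed and so did 3 members: Pglyrp1 (limma adjusted p = 6.76e-05), Slpi and Ang4.

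Slpi had 4.86, 11.9 and 7.89 CPM with TNF, against 1.88, 4.43 and 3.67 CPM with vehicle. It was higher in every line, by 2.59, 2.68 and 2.15-fold, and the groups did not overlap, as for 4.62% of all genes in that direction. The log2 change of 1.07 ± 0.34 failed the unpaired test (SE, limma adjusted p = 0.811) and passed with the line as a block (limma adjusted p = 0.000332). Ang4 had 201, 152 and 81.9 CPM with TNF, against 165, 89.9 and 64.6 CPM with vehicle, higher within each line while the groups overlap. Its log2 change was 0.46 ± 0.41 (SE, limma adjusted p = 1.000), and 0.0122 was its limma adjusted p with the block. Mptx1 had 11.8, 17.2 and 3.3 CPM with TNF, against 5.17, 25.8 and 3.07 CPM with vehicle, with no common direction over the lines. Pigr had 1680, 2317 and 1221 CPM with TNF, against 1677, 2089 and 1187 CPM with vehicle, and its log2 change was 0.06 ± 0.28 (SE, limma adjusted p = 1.000). With the block the Pigr adjusted p was 0.613.

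With TGFB1 and BMP2 present on both sides, all 12 colonoid libraries were fitted together, on CPM recomputed from the recovered reads. Pglyrp1 had 398, 758 and 990 CPM with all 3 ligands, against 172, 203 and 428 CPM with TGFB1 and BMP2. It was 2.31, 3.73 and 2.32-fold higher by line, with a log2 change of 1.44 ± 0.35 that did not pass (SE, limma adjusted p = 0.227) and passed with the line as a block (limma adjusted p = 0.0282). Slpi had 3.66, 11.2 and 11.8 CPM with all 3 ligands, against 3.01, 2.80 and 3.64 CPM with TGFB1 and BMP2. Those groups did not overlap, as for 4.32% of all genes in that direction, though the log2 change of 1.12 ± 0.41 passed neither test (SE, limma adjusted p = 0.605, and 0.0680 with the block). No member of 5 was called, where 0.175% of the 11413 genes tested were called, and 14 genes had a larger log2 change than Pglyrp1. The difference between the TNF effect with and without TGFB1 and BMP2 was tested as an interaction. It was 0.46 ± 0.50 for Pglyrp1, 0.08 ± 0.57 for Slpi, -0.65 ± 0.71 for Ang4, -0.63 ± 1.14 for Mptx1 and -0.19 ± 0.75 for Pigr on the log2 scale (SE, limma adjusted p = 1.000 each). Of all genes, limma called 0 for the interaction (84 at an unadjusted p under 0.05) and edgeR called 0. These fits left out the line, so the spread between lines lies in their error. With the line as a block no member was called for the interaction either. No difference in the TNF effect was thus detected in these libraries, which does not show that there is none.

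**Figure D4:**
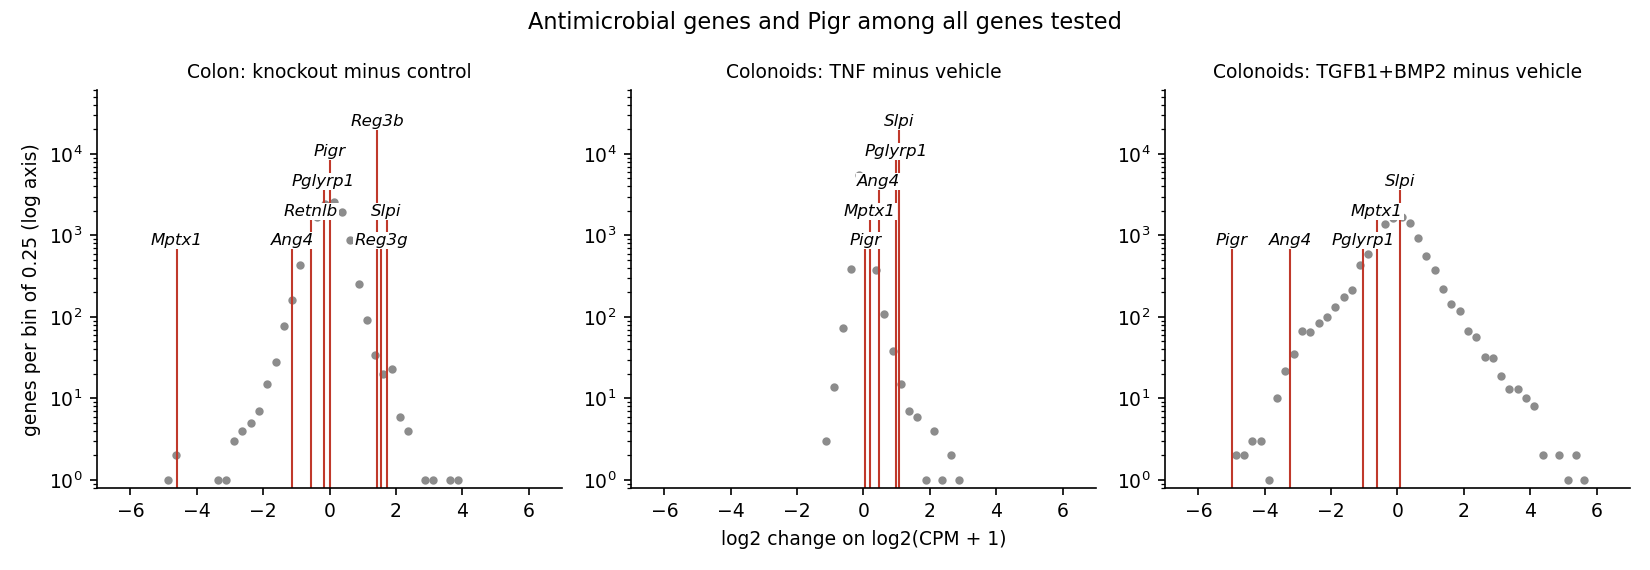
Number of genes per 0.25-wide bin of log2 change (grey points, log axis) in knockout against control colon, TNF against vehicle and TGFB1 with BMP2 against vehicle in colonoids, with the members as red lines. Mptx1 in colon and Pigr in colonoids given TGFB1 and BMP2 lie at the lower end of all genes. Other members lie nearer 0, though several stand in the tails. In colon 38, 53 and 64 of 11607 genes had a higher change than Slpi, Reg3g and Reg3b. With TGFB1 and BMP2, 46 of 11633 genes had a lower one than Ang4.

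Slpi is the 1 member listed in the colonocytes, where its levels rest on few reads. It had 1.99, 2.74 and 2.05 CPM with TNF, against 1.28, 1.22 and 1.69 CPM in the control. All 3 TNF libraries lay above all control libraries, as for 13.0% of all genes, with a log2 change of 0.44 ± 0.14 (SE, limma adjusted p = 0.111) that passed with the replicate number as a block (limma adjusted p = 0.0214). In the authors' deposited table its log2 fold change is 0.73 with a false discovery rate of 0.0178. In that comparison 6.28% of the 11586 genes tested were called, with 442 higher and 296 lower under scaling to total reads in place of 534 and 194. With TGFB1 and BMP2, Slpi had 1.28, 1.62 and 1.61 CPM, against 1.26, 1.20 and 1.66 CPM in the control, and its log2 change was 0.08 ± 0.14 (SE, limma adjusted p = 0.720; 30.2% of genes called). With all 3 ligands it had 2.70, 2.25 and 1.82 CPM, against 1.91, 2.63 and 1.97 CPM with TNF, a log2 change of 0.04 ± 0.15 (SE, limma adjusted p = 0.869; 31.9% of genes called). Both of these pairs overlapped. Id1 did not pass with TGFB1 and BMP2 in these cells, at 95.1 ± 9.69 CPM against 86.7 ± 9.90 CPM in the control (SD, n = 3; log2 change 0.13, limma adjusted p = 0.270). With all 3 ligands it was above TNF alone, at 82.2 ± 11 CPM against 66.6 ± 4.12 CPM, with overlapping groups (SD, n = 3; log2 change 0.29, limma adjusted p = 0.0196). TNF alone had lowered Id1, at 69.3 ± 4.28 CPM against 88.2 ± 9.92 CPM in the control (SD, n = 3). That log2 change was -0.34 (limma adjusted p = 0.0273). With scaling to total reads, the calls over all genes were 1228 higher and 2896 lower for TGFB1 with BMP2, in place of 1848 and 1665, and 1266 higher and 3065 lower for all 3 ligands against TNF, in place of 1892 and 1802. In the fit of all 12 libraries Slpi had 2.73, 2.28 and 1.84 CPM with all 3 ligands, against 1.27, 1.6 and 1.59 CPM with TGFB1 and BMP2, a log2 change of 0.39 ± 0.14 (SE, limma adjusted p = 0.164; 4.13% of genes called). The interaction was -0.04 ± 0.20 (SE, limma adjusted p = 1.000; 0.00875% of genes called). No source used here says what separates the colonocyte replicates, so these p-values measure the spread between these libraries.

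5 lists of related genes stand beside the members, and a percentage beside their counts is the share of tested list genes called. Of all genes, 39.7% were called in knockout colon. In colonoids the share was 56.7% with TGFB1 and BMP2, 54.1% with all 3 ligands against TNF and 0.137% with TNF. In colonocytes it was 30.2%, 31.9% and 6.28% in that order. For TNF under TGFB1 and BMP2 it was 0.175% in colonoids and 4.13% in colonocytes. Of other antimicrobial and mucosal defence genes, 22 of 39 were tested in colon, 10 rose and 6 fell in the knockout (72.7%). Their median log2 change was 0.12. Ltf, which binds iron, had 11.8 ± 3.34 CPM in knockout and 2.59 ± 0.50 CPM in control (SD, n = 3; limma adjusted p = 0.000283). Zg16, a mucus lectin that binds Gram-positive bacteria, had 541 ± 61.2 CPM in knockout and 2122 ± 437 CPM in control (SD, n = 3; limma adjusted p = 8.61e-05). Itln1, a lectin of bacterial glycans, had 2.12 ± 0.185 CPM in knockout and 10.4 ± 6.32 CPM in control (SD, n = 3; limma adjusted p = 0.00180). Of goblet and deep crypt secretory genes, 16 of 16 were tested, 2 rose and 9 fell (68.8%), and the median was -0.47. The largest called changes were in Tff3 (-1.39), Fcgbp (-1.27) and Spink4 (-0.99), all secreted goblet products. The 2 that rose were Clca1 (0.79) and Creb3l1 (0.48). Muc2 (-0.18) and Agr2 (-0.14), singled out after their values were seen, were not called.

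Of the IL-22, STAT3 and IL-18 genes, upstream of the Reg3 lectins, 18 of 20 were tested in colon, 7 rose and 2 fell, with a median of 0.28. These calls were 50.0% of the genes tested in the list, against 39.7% of all genes. Osmr, the oncostatin M receptor subunit, had 6.65 ± 3.05 CPM in knockout and 1.02 ± 0.442 CPM in control (SD, n = 3; limma adjusted p = 0.00106). Il18 had 134 ± 25.3 CPM in knockout and 64.6 ± 12 CPM in control (SD, n = 3; limma adjusted p = 0.00133), and Il17rc, an IL-17 receptor subunit, fell, with 77.6 ± 13.8 CPM in knockout and 131 ± 18.1 CPM in control (SD, n = 3; limma adjusted p = 0.00332). Of microbial sensing genes, 16 of 18 were tested, 7 rose and 2 fell (56.2%), with a median of 0.26. Tlr4, the receptor of lipopolysaccharide (0.76), and Tlr3, that of double-stranded RNA (0.70), rose on the log2 scale, and Sigirr, an inhibitor of Toll-like and IL-1 receptor signals, fell by 0.80.

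IgA transport and Pigr regulator genes (22 of 26 tested) were called higher in 5 and lower in 2 cases in colon. This IgA and Pigr list mixes both kinds of gene. Its median was -0.03, and 31.8% of its genes were called, against 39.7% of all genes. Igj, the joining chain of polymeric IgA, had 26.4, 21.4 and 25.7 CPM in knockout libraries, against 5.16, 11.7 and 14.6 CPM in control libraries. It rose without overlap (log2 change 1.25, limma adjusted p = 0.00722). Of 6 plasma cell marker symbols 2 are listed in colon, Igj and Sdc1, while Mzb1, Derl3 and Tnfrsf17 are not. The remaining symbol, Jchain, is a second name of the Igj gene, here and in the IgA and Pigr list. Igj and Sdc1 summed to 192 to 247 CPM in knockout libraries and 228 to 270 CPM in control libraries. Most of that sum is Sdc1, as Igj reached at most 26.4 CPM. Sdc1 is listed in the colonoids too, at 429 to 522 CPM with vehicle in the comparison with TNF, where Igj is not listed. The part of plasma cells in the Igj rise was not tested. Il13ra1, an IL-13 receptor subunit (0.98), and Tnfsf13b, the B cell factor BAFF (0.87), also rose on the log2 scale.

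**Figure D5:**
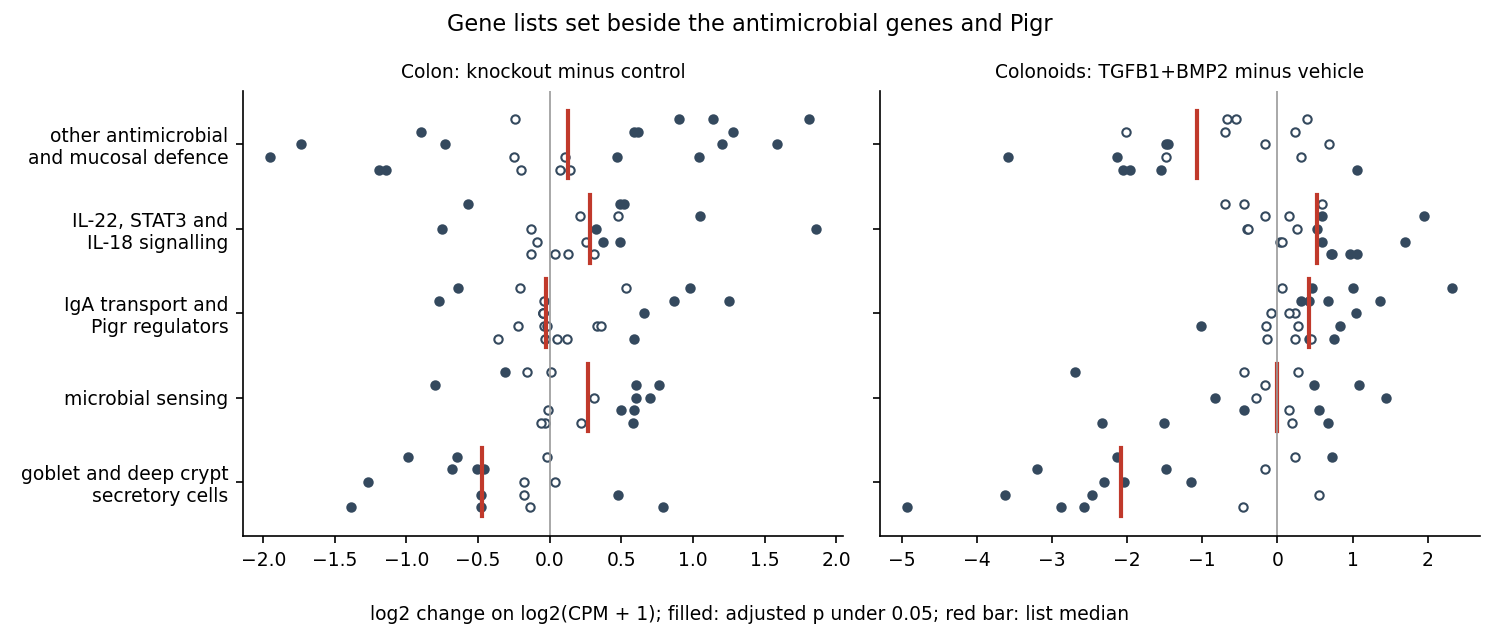
Log2 change of each tested gene of 5 lists, in knockout against control colon and in TGFB1 with BMP2 against vehicle colonoids, with a red bar at each list's median. The goblet and deep crypt secretory list has the lowest median in both (-0.47 and -2.09).

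In colonoids given TGFB1 and BMP2, the IgA and Pigr list moved apart from Pigr. Of its 21 genes tested 11 rose and 1 fell (7 rose and 2 fell with scaling to total reads). The median was 0.42 against -0.02 over all genes. The share called, 57.1%, was near the 56.7% of all genes. Il4ra, the IL-4 receptor chain, had 410 ± 79.5 CPM with TGFB1 and BMP2 and 81.0 ± 18.4 CPM with vehicle (SD, n = 3; limma adjusted p = 0.00118). Ifngr2, an interferon-gamma receptor chain, had 355 ± 35.2 CPM with TGFB1 and BMP2 and 172 ± 11.2 CPM with vehicle (SD, n = 3; limma adjusted p = 0.00146). Of the IL-22, STAT3 and IL-18 genes 9 of 19 rose and none fell (6 rose and 4 fell with scaling to total reads), led by Osmr (1.95), Il6ra (1.70) and Il22ra1 (1.06). The share called in that list, 47.4%, was below the 56.7% of all genes.

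Other antimicrobial genes of the colonoids fell in 7 of 18 cases and rose in 1, with a median of -1.07 (2 rose and 11 fell with the line as a block). Without the block 44.4% of them were called, against 56.7% of all genes. Reg4, a lectin of secretory cells, had 9.53 ± 2.68 CPM with TGFB1 and BMP2 and 139 ± 74.3 CPM with vehicle (SD, n = 3; limma adjusted p = 0.00213). Ccl28, a chemokine that draws IgA-secreting plasma cells, had 11.6 ± 2.51 CPM with TGFB1 and BMP2 and 56.3 ± 22.0 CPM with vehicle (SD, n = 3; limma adjusted p = 0.00232), and Pla2g2a, a bactericidal phospholipase, fell by 2.06 on the log2 scale. Microbial sensing genes rose in 5 and fell in 5 of 16 cases, or 62.5% (3 and 7 genes with scaling to total reads). Nlrp6 (-2.69), Nod1 (-2.33) and Tlr1 (-1.51) had the largest called changes. Goblet and deep crypt secretory genes fell in 11 of 16 cases and rose in 1 (75.0%), with a median of -2.09. Among these, Agr2, which folds mucins, had 11.7 ± 8.44 CPM with TGFB1 and BMP2 and 349 ± 115 CPM with vehicle (SD, n = 3; limma adjusted p = 0.00134), and Atoh1, the factor that specifies secretory cells, had 0.522 ± 0.123 CPM with TGFB1 and BMP2 and 18.2 ± 5.67 CPM with vehicle (SD, n = 3; limma adjusted p = 0.000974). The 5 goblet markers summed to 164 to 220 CPM with TGFB1 and BMP2 and 512 to 838 CPM with vehicle, and the 9 epithelial markers to 25134 to 34072 CPM and 9144 to 11008 CPM. The part of secretory cell number in the Pigr and Ang4 falls was not tested.

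Under TNF, TGFB1 and BMP2 gave like counts. Other antimicrobial genes rose in 1 and fell in 8 of 17 cases, or 52.9% (1 and 13 genes with the line as a block). Goblet genes rose in 1 and fell in 12 of 16 (81.2%). Genes of the IgA and Pigr list rose in 12 and fell in 1 of 21 cases (61.9%). Of all genes 54.1% were called. Nlrp6 (-3.45), Agr2 (-5.27) and Pla2g2a (-2.96) had the largest called log2 changes of their lists. Of the IL-22, STAT3 and IL-18 genes 9 of 19 rose and none fell (47.4%), and microbial sensing genes rose in 4 and fell in 6 of 16 cases (62.5%). With scaling to total reads the IL-22 list had 5 higher and 5 lower and the IgA and Pigr list 6 higher and 2 lower.

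TNF alone left nearly all list genes of the colonoids uncalled. The exception was Nos2, the inducible nitric oxide synthase, at 59.2 ± 13.7 CPM with TNF and 10.9 ± 1.79 CPM with vehicle (SD, n = 3; limma adjusted p = 0.0109). The block raised the calls over all genes too, to the count given above with Pglyrp1. That count, and not the 0.137% without the block, is the background of the list counts that follow. With the line as a block, 6 of 21 genes of the IgA and Pigr list rose and none fell. Other antimicrobial genes rose in 3 and fell in 4 of 18 cases, and goblet genes rose in 1 and fell in 5 of 16. Microbial sensing genes then rose in 3 and fell in 2 of 16 cases, and IL-22, STAT3 and IL-18 genes rose in 2 and fell in none of 18. Under TGFB1 and BMP2, TNF raised 1 list gene of the colonoids, Nod2, a sensor of bacterial muramyl dipeptide, at 13.9 ± 0.530 CPM with all 3 ligands and 6.35 ± 0.885 CPM with TGFB1 and BMP2 (SD, n = 3; limma adjusted p = 0.0122). Its log2 change there was 1.02, in the fit of 12 libraries. Nod2 moved alike with TNF alone, at 9.54 ± 0.227 CPM against 4.43 ± 0.729 CPM with vehicle (SD, n = 3). That log2 change of 0.96 did not pass (limma adjusted p = 0.0658).

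In the colonocytes TNF raised 12 of 22 genes of the IgA and Pigr list (54.5%), where 6.28% of all genes were called. Relb (1.79), Irf1 (1.19) and Nfkb2 (1.18) led that list, although Pigr itself is not listed there. TNF raised 3 of 5 tested antimicrobial genes (60.0%). One of those, Pglyrp3, a relative of Pglyrp1, had 24.1 ± 2.61 CPM with TNF and 7.98 ± 0.347 CPM in the control (SD, n = 3; limma adjusted p = 3.37e-06). Microbial sensing genes rose in 5 of 11 cases (45.5%), led by Tlr2 (1.91), and 1 of 3 goblet genes fell (33.3%). The IL-22, STAT3 and IL-18 genes rose in 4 and fell in 1 of 19 (26.3%). With the replicate number as a block the latter counts were 8 and 3, and more of all genes were called too. Under TGFB1 and BMP2, TNF raised 10 of 21 genes of the IgA and Pigr list (47.6%) in these cells. It raised 2 of 4 antimicrobial genes (50.0%), where 4.13% of all genes were called. TGFB1 with BMP2 raised 4 of 21 genes of the IgA and Pigr list over the control, led by Il4ra (0.78), and lowered none. These calls were 19.0% of the genes tested in the list, below the 30.2% of all genes. The split turned to 3 higher and 7 lower with scaling to total reads and to 4 and 4 with the replicate number as a block. TGFB1 with BMP2 lowered 1 of 4 antimicrobial genes, 3 of 4 with scaling to total reads and 2 of 4 with the block. The 1 call was 25.0% of the genes tested, below the 30.2% of all genes. Scaling to total reads moved the calls over all genes towards lower ones as well. Added to TNF, TGFB1 with BMP2 raised 4 and lowered 7 of 22 genes of the IgA and Pigr list (2 and 10 with scaling to total reads). They lowered 2 of 5 antimicrobial genes, Saa3 (-0.71) and Pglyrp3 (-0.55), or 3 of 5 with scaling to total reads or the block.

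The genes whose levels ran closest to each member over the 12 colonoid libraries were found among 10263 genes, by the root mean square difference of log2(CPM + 1) after subtracting each line's mean; this is a description over libraries that share lines and treatments. Closest to Pigr was Agr2, with a difference of 0.19 where Pigr's own spread was 2.60, followed by Myb at 0.31. Agr2 averaged 7.35 CPM with all 3 ligands, 11.6 with TGFB1 and BMP2, 315 with TNF and 349 with vehicle, and Myb 3.60, 3.70, 86.4 and 88.3 CPM in the same groups. Closest to Ang4, whose own spread was 1.86, were Slc1a1 (0.22) and Rassf4 (0.25). Pglyrp1 (own spread 0.78) had Sdhaf1 (0.32) and Tnfaip2 (0.33), and Slpi (own spread 0.60) had Slc9a4 (0.27) and AW112010 (0.30). For Mptx1, with an own spread of 0.57, BC030870 and Ccne2 were both at 0.23.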

How the data were processed

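mRNA of 30 samples was sequenced, as 51 bp single-end reads for colon and 75 bp paired-end reads for the cultures, per the series description. The submitters' processing notes name mm10, edgeR 3.4.2, HTSeq 0.5.4p5, TopHat2 2.1.0, SAMtools 1.3.1, CASAVA and bcl2fastq 2.16; no source used here gives the strand setting of the counting or the authors' filter on low genes. The deposited library columns of the 7 tables hold a signal, CPM on each library's effective size, normalised within each table. Per the file headers, the deposited tables also give the authors' log2 fold change, log2 average CPM, false discovery rate and p-value. All deposited values (100%) were whole multiples of 1 read within 0.05, so reads were recovered for the count tools and for the fits of 12 libraries.

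From these, limma 3.58.1 (R 4.3.3; two-sided, mean-variance trend) was run on log2(CPM + 1), keeping genes whose CPM averaged 1 or more, with Benjamini-Hochberg adjustment over all genes of a table; all listed members passed. Fits of 12 libraries used TMM scaling and genes listed in all 3 tables of a system. Alternatives were a pseudocount of 0.25 or 4, no filter, a mean CPM of at least 5, total reads, edgeR 4.0.16 (quasi-likelihood), DESeq2 1.42.0, the replicate number as a block, and leaving out each library. Scripts were tested on simulated data.

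Colonoid libraries are paired by line, per the labels, and same-line libraries deviated together (correlations 0.283 to 0.887). Colonocyte numbers paired by the same measure for TNF against control (0.27 to 0.522, with at most 0.22 between different numbers). Same and different numbers were not separated for all 3 ligands against TNF (0.163 to 0.411, with up to 0.217 between different numbers). Nor were they for TGFB1 with BMP2 against control (0.048 to 0.251, with up to 0.232 between different numbers). The 8 members and the gene lists were chosen with earlier results of these data known. Named beside the members were up to 3 genes per list with the largest called change, the 2 genes closest in pattern, and Smad4 and Id1 as checks. One gene that this rule names is not reported here. Sequences and positions came from RefSeq (GRCm38.p6); 7 of 8 members had a promoter entry, Retnlb had none.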

Additional observations from a re-analysis of the deposited data

How the results depend on the processing

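Of 432 values of 38 member results under alternatives, 381 kept their direction and their side of the threshold, 17 fell below it, 10 passed it and 24 changed sign. The sign changes were all in results that did not pass the limma test. With scaling to total reads, Slpi came to -0.02 (all 3 ligands against TNF, colonocytes), -0.12 (TGFB1 with BMP2, colonoids) and -0.08 (all 3 ligands against TNF, colonoids). Mptx1 with TNF in colonoids was -0.08 by edgeR and -0.08 by DESeq2. Leaving out 1 library at a time gave Pigr -0.05 to 0.06 in colon, -0.17 to 0.29 with TNF in colonoids and -0.34 to 0.05 with TNF under TGFB1 and BMP2. It gave Mptx1 -0.36 to 1.00 with TNF and -1.21 to 0.19 with TGFB1 and BMP2, both in colonoids. It gave Slpi -0.18 to 0.27 with TGFB1 and BMP2, -0.14 to 0.62 with all 3 ligands against TNF and -0.16 to 0.50 for the interaction in colonoids, and -0.06 to 0.14 with all 3 ligands against TNF and -0.23 to 0.14 for the interaction in colonocytes.

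Counts of genes called moved as follows. With the replicate block, calls for TNF were 2356, against 728 without it, in colonocytes and 718, against 16, in colonoids; under TGFB1 and BMP2 they were 998, against 472, in colonocytes and 254, against 20, in colonoids; the colonocyte interaction had 30, against 1. For TNF in colonoids DESeq2 called 116. By edgeR, TNF under TGFB1 and BMP2 in colonoids had 13 and the colonocyte interaction 0; total reads gave that interaction 2. Leaving out 1 library at a time gave 2708 to 4915 calls in colon (main 4611). In colonocytes it gave 400 to 1217 for TNF, 2578 to 4100 for TGFB1 with BMP2 (main 3513), 2664 to 3612 for all 3 ligands against TNF (main 3694), 157 to 839 for TNF under TGFB1 and BMP2 and 0 to 18 for the interaction. In colonoids the ranges were 1 to 8, 4613 to 7617 (main 6596), 4177 to 7558 (main 6278), 0 to 29 and 0 for the same comparisons in that order. The causes were not tested, except that leaving out a library means fewer samples. In colon the replicate numbers did not pair the libraries (correlations -0.006 to 0.123), and the block kept the member counts at 3 higher and 2 lower; beyond the calls given with the results, it changed no other member call. At the depth of these libraries, levels near 1 CPM, such as Slpi in colonocytes, carry the widest counting error.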
